A study of Danio rerio with 9 samples.

Results

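The Hox cluster genes of zebrafish embryos were examined in whole-embryo RNA sequencing of a coal dust extract exposure. Members were the rows of the deposited tables whose symbol starts with hoxa, hoxb, hoxc or hoxd followed by a paralog number and ends in a or b, which gave 49 of 32312 genes. They comprised 14 anterior members of paralog groups 1 to 4, 12 middle members of groups 5 to 8 and 23 posterior members of groups 9 to 13. All 49 passed the filter on low counts. All embryos were of the TU strain, with no mutation or transgene named in the labels, and were lysed whole at 24 h post fertilisation (hpf). The exposed embryos had received a methanolic coal dust extract in dimethyl sulfoxide at 100 mg/L at 4 hpf and were sorted by malformation. Group P1 had deformed tails (n = 3 libraries), P2 had deformed yolks (n = 2) and P3 was made of small embryos with extruded yolks (n = 3). The control was 1 pooled library of embryos with normal phenotype, and the labels do not say whether it received solvent. RNA came from 50 embryos per phenotype group, and the labels do not say whether libraries of a group came from separate clutches, so the p-values reflect the spread between these libraries alone, and that spread may be technical.

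Hox genes encode homeodomain transcription factors that give cells along the head-to-tail axis their regional identity. Within a cluster their order on the chromosome matches the order in which they are expressed along the body, a property called colinearity: low-numbered paralog groups act in the hindbrain and pharyngeal arches, middle groups in the trunk and spinal cord, and high-numbered groups in the posterior trunk and tail. The anterior genes respond directly to retinoic acid. Cdx transcription factors, with Wnt and Fgf signals from the tailbud, act on the middle and posterior genes. In the day-old zebrafish embryo the hindbrain is segmented, somites are still being added at the tail, and the genes are transcribed most strongly in the neural tube.

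The members lay in 7 clusters on the Zv9 assembly. The hoxaa cluster held 7 members on chr19:19195251-19253497 and its duplicate hoxab held 5 on chr16:22980334-23013613. The hoxba cluster held 11 on chr3:23945474-24062383 and hoxbb held 4 on chr12:28688847-28713862. The hoxca cluster held 11 on chr23:36104488-36235041, hoxcb held 4 on chr11:2108753-2180948, and hoxda held 7 on chr9:1927848-1981122. All members are annotated as protein-coding genes. The spans of 15 members overlapped the model of another Hox gene, because the deposited models of hoxa3a, hoxb3a, hoxc3a, hoxd3a and hoxc10a each reach across 1 or more neighbours (hoxa3a over hoxa4a and hoxa5a, hoxb3a over hoxb4a, hoxb5a and hoxb6a, hoxc3a over hoxc4a, hoxc5a and hoxc6a, hoxd3a over hoxd4a, hoxc10a over hoxc9a). Another 9 members overlapped a non-Hox model only, and 13 of the 49 had an overlapping model on the other strand, such as evx1 across the hoxaa cluster. How reads in shared stretches were assigned, and whether strand was used, is not given, so counts of these members are uncertain.

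The libraries held 14719252 to 20810487 counts in the exposed embryos and 12008832 counts in the control, and 23315 to 24024 genes had at least 1 count. Hox members took 0.0857% to 0.0982% of the exposed counts and 0.0878% of the control counts. Their counts per library ran from 13 to 2086, and 36 members had more than 100 counts in every library. Expression is given below as CPM (counts scaled to a common library size, after TMM normalisation), and changes come from edgeR's quasi-likelihood test with Benjamini-Hochberg adjustment over the 19835 genes tested, at a threshold of 0.05. With 1 control library, its spread was taken from the exposed groups, and no replicate check of the control was possible. The 3 control comparisons share that library. In the groups of 3, P3 replicate 0 lay farthest from its group mean, with a mean absolute log2 deviation of 0.148 over all genes. The other P1 and P3 libraries had 0.119 to 0.128. Both P2 libraries had 0.0918, a value equal by construction with 2 libraries and not comparable with groups of 3.

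Levels between genes can be compared only per transcript length, for which the deposited FPKM was used. Averaged over the 9 libraries, the median FPKM was 15.6 for the anterior members, 9.30 for the middle members and 6.37 for the posterior members. The highest mean levels were 26.8 FPKM for hoxb3a, 24.4 FPKM for hoxb9a and 23.7 FPKM for hoxb8a, all of the hoxba cluster. These 3 belong to the anterior, posterior and middle class. The lowest were 1.14 FPKM for hoxa11a and 1.32 FPKM for hoxa13b, both posterior.

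Against the control, every anterior Hox gene that passed the test was higher in the exposed embryos and every posterior one lower. The share of anterior genes called higher in P2 and P3 was above that of all tested genes, while the share of posterior genes called lower was near or below that of all tested genes in P1 and P2. In P1, 5 of 49 members passed the test, 2 higher (hoxb1a, hoxc8a) and 3 lower (hoxa9a, hoxd9a, hoxd10a), where 16.3% of all tested genes passed (7.08% higher, 9.19% lower). In P2, 15 members passed, 11 higher and 4 lower, where 29.8% of all tested genes passed (14.2% higher, 15.6% lower). In P3, 12 members passed, 7 higher and 5 lower, where 22.6% of all tested genes passed (10.4% higher, 12.2% lower). The share of all Hox members that passed was 10.2% in P1, 30.6% in P2 and 24.5% in P3, near or below the share over all genes. Without P1 replicate 2 the P1 calls of hoxa9a, hoxd9a and hoxd10a were lost and 2 remained, and DESeq2 called 1 member in P1 (hoxb1a). A fit of P2 and the control alone called 23 members in P2. A fit of P3 and the control alone called 9 in P3, without hoxa3a, hoxa4a and hoxb4a. Over all genes these fits called 7966 of 19361 in P2 and 3106 of 19454 in P3. The fit of all libraries called 5916 and 4482 of 19835. The Hox counts thus moved the same way as those over all genes.

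The direction of the calls differed between the classes. Of the 14 anterior members, 1 passed as higher in P1, 9 in P2 and 6 in P3, and none passed as lower. These shares were 7.14%, 64.3% and 42.9%, where 7.08%, 14.2% and 10.4% of all tested genes were higher. Several of the called members overlap another Hox model (hoxa3a, hoxb3a, hoxc3a, hoxd3a, hoxb4a and hoxd4a in P2, and hoxa3a, hoxc3a, hoxa4a and hoxb4a in P3). Their calls may rest on shared reads and need not be separate. Of the 12 middle members, 1 was higher in P1, 2 in P2 and 1 in P3, with 1 lower, in P2. Of the 23 posterior members, 3 were lower in P1, 3 in P2 and 5 in P3, and none passed as higher. These shares were 13%, 13% and 21.7%, where 9.19%, 15.6% and 12.2% of all tested genes were lower. Alternative settings included other scalings, DESeq2 and each exposed library left out. Under every setting run, no anterior member passed as lower and no posterior member as higher in a control comparison. All of these comparisons kept the same single control library, so they could not show how far the directions depend on it. The median log2 fold change of the anterior members was 0.14 in P1, 0.36 in P2 and 0.24 in P3, that of the middle members -0.11, -0.014 and -0.11, and that of the posterior members -0.20, -0.30 and -0.32, where the median over all tested genes was -0.001, 0.004 and 0.014.

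**Figure D1:**
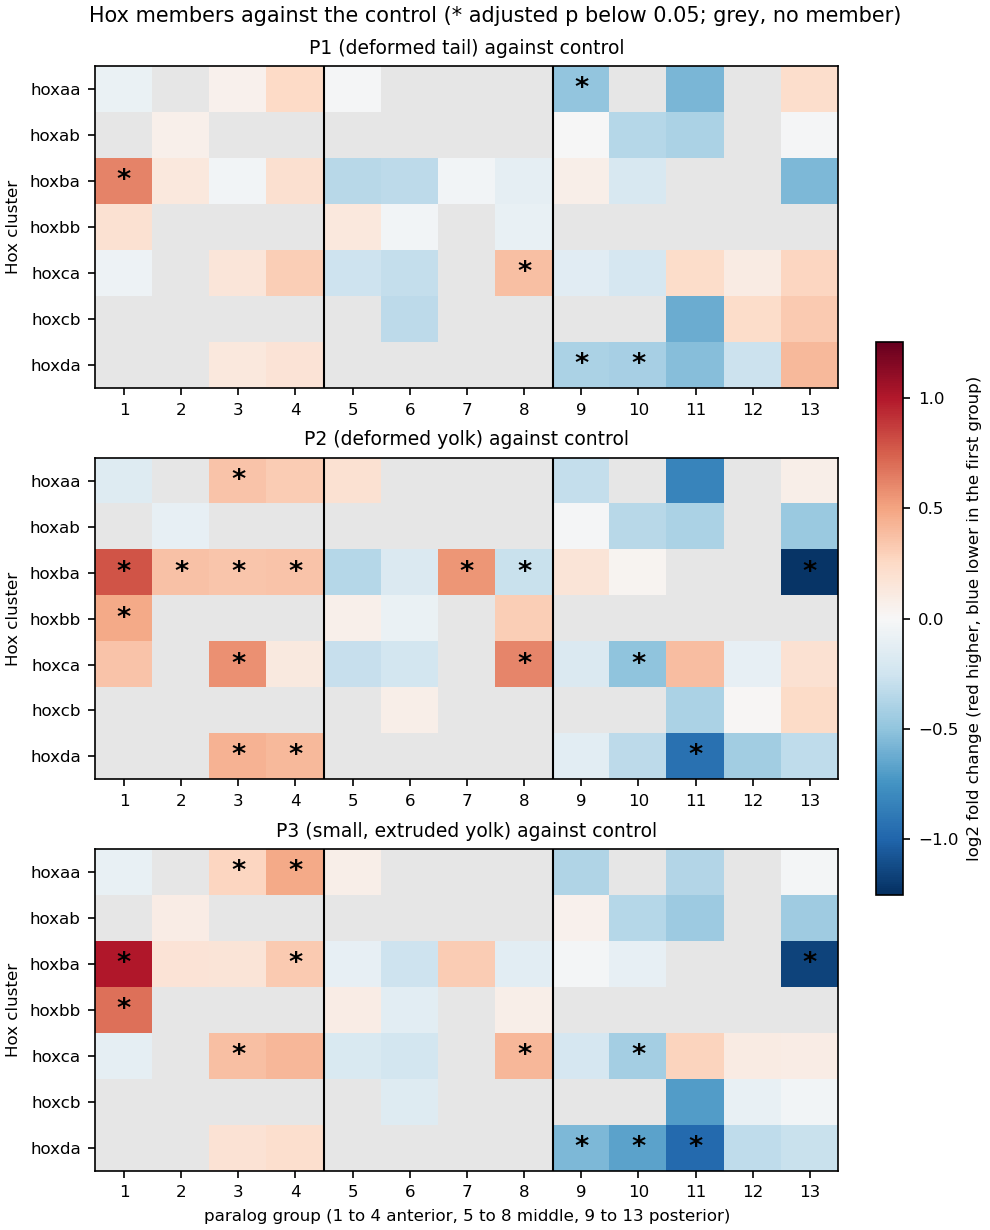
Log2 fold change of each Hox member over the control, in 3 panels for P1, P2 and P3, with the 7 clusters as rows and the paralog groups 1 to 13 as columns; stars mark members that passed edgeR's test (adjusted p below 0.05), grey marks positions with no member, and black lines part the classes. Starred cells to the left of the first line are red (higher) and those to the right of the second are blue (lower). There is 1 anterior star in P1, with 9 in P2 and 6 in P3.

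A separate count compared the libraries without a model. In 9 of 14 anterior members all 8 exposed libraries lay above the control, and in none did all lie below it. In 12 of 23 posterior members all 8 lay below the control and in 2 all lay above it, while of 12 middle members 1 lay wholly above and 4 wholly below. Over all tested genes, 23.5% had all 8 exposed libraries above the control and 24.8% had all 8 below it.

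Paralog group 1 acts early, in the hindbrain. hoxb1a (ENSDARG00000008174, chr3:24060139-24062383) gives the fourth rhombomere its identity. hoxb1a had 16.6, 17.1 and 16.2 CPM in the P1 libraries, 17.6 and 19.6 CPM in P2, 24.0, 19.0 and 21.8 CPM in P3 and 10.8 CPM in the control. Every exposed library lay above the control, and the P3 libraries were higher than all P1 libraries. For hoxb1a the log2 fold change over the control was 0.62 ± 0.16 (adjusted p = 0.0105) in P1, 0.79 ± 0.16 (adjusted p = 0.00119) in P2 and 1.00 ± 0.15 (adjusted p = 0.000107) in P3. The P3 change was the largest rise of a member in the control comparisons. hoxb1b (ENSDARG00000054033, chr12:28712171-28713862) is the group 1 gene of the gastrula, which acts in hindbrain segmentation and is induced by retinoic acid. hoxb1b had 30.9, 32.1 and 32.8 CPM in the P1 libraries, 38.2 and 39.3 CPM in P2, 45.8, 42.3 and 46.6 CPM in P3 and 28.0 CPM in the control. The 3 phenotypes did not overlap, with P3 highest, P2 next and P1 nearest the control. For hoxb1b the log2 fold change over the control was 0.19 ± 0.099 (adjusted p = 0.213) in P1, 0.47 ± 0.10 (adjusted p = 0.00237) in P2 and 0.68 ± 0.098 (adjusted p = 6.58e-05) in P3.

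The remaining group 1 members did not pass against the control. hoxc1a (ENSDARG00000070337, chr23:36229648-36235041) belongs to a paralog group of the C cluster that mammals have lost. hoxc1a had 16.3, 12.8 and 14.9 CPM in the P1 libraries, 20.1 and 19.2 CPM in P2, 14.96, 15.2 and 12.7 CPM in P3 and 15.4 CPM in the control. Both P2 libraries stood above all others, the P1 libraries lay on both sides of the control, and the P3 libraries lay below it. For hoxc1a the log2 fold change over the control was -0.061 ± 0.15 (adjusted p = 0.83) in P1, 0.35 ± 0.15 (adjusted p = 0.0921) in P2 and -0.11 ± 0.15 (adjusted p = 0.645) in P3. hoxa1a (ENSDARG00000057721, chr19:19251862-19253497) ran over 2.71 to 3.84 CPM in the 9 libraries. The P1 and P3 libraries lay on both sides of the control. Both P2 libraries lay below it, at 2.80 and 3.42 CPM against 3.51 CPM. For hoxa1a the log2 fold change was -0.082 ± 0.28 (adjusted p = 0.882) in P1, -0.17 ± 0.30 (adjusted p = 0.716) in P2 and -0.093 ± 0.28 (adjusted p = 0.849) in P3.

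Paralog group 2 acts in the hindbrain and patterns the second pharyngeal arch. In that arch zebrafish hoxa2b and hoxb2a act together. The hoxb2a transcript ranged over 16.8 to 21.8 CPM and passed in P2, with a log2 fold change of 0.37 ± 0.13 (adjusted p = 0.0414), against 0.13 ± 0.13 (adjusted p = 0.517) in P1 and 0.17 ± 0.13 (adjusted p = 0.366) in P3. The P2 call was lost when either P2 library was left out and with DESeq2. For hoxa2b, at 14.0 to 17.2 CPM, values were 0.064 ± 0.12 (adjusted p = 0.779) in P1, -0.10 ± 0.13 (adjusted p = 0.598) in P2 and 0.096 ± 0.12 (adjusted p = 0.624) in P3, none past the threshold.

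Paralog group 3 acts in the posterior hindbrain. All 4 of its members passed in P2, and each has a model that spans a neighbouring Hox gene. hoxb3a (ENSDARG00000029263, chr3:23989275-24040647) is the member with the highest level per length. hoxb3a had 87.6, 84.4 and 84.7 CPM in the P1 libraries, 110.1 and 113 CPM in P2, 98.0, 101 and 95.2 CPM in P3 and 87.7 CPM in the control. Both P2 libraries stood above all others and the P3 libraries above P1 and the control, while the P1 libraries lay just below the control. For hoxb3a the log2 fold change over the control was -0.034 ± 0.075 (adjusted p = 0.807) in P1, 0.35 ± 0.080 (adjusted p = 0.00319) in P2 and 0.16 ± 0.075 (adjusted p = 0.144) in P3. hoxc3a (ENSDARG00000070339, chr23:36158334-36200915) is another C cluster gene without a mammalian counterpart. hoxc3a had 45.1, 42.4 and 43.3 CPM in the P1 libraries, 60.3 and 56.5 CPM in P2, 52.1, 50.9 and 50.2 CPM in P3 and 39.2 CPM in the control. All exposed libraries lay above the control, in the order P2, P3 and P1 with no overlap between them. For hoxc3a the log2 fold change over the control was 0.15 ± 0.089 (adjusted p = 0.263) in P1, 0.57 ± 0.092 (adjusted p = 0.000167) in P2 and 0.38 ± 0.088 (adjusted p = 0.00483) in P3.

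hoxa3a (ENSDARG00000036231, chr19:19220695-19245990) acts in the posterior hindbrain and pharyngeal arches. hoxa3a had 52.3, 50.8 and 56.0 CPM in the P1 libraries, 65.1 and 65.9 CPM in P2, 63.5, 62.1 and 59.6 CPM in P3 and 51.0 CPM in the control. The P2 and P3 libraries lay above every P1 library, and the control lay within the P1 range. For hoxa3a the log2 fold change over the control was 0.057 ± 0.087 (adjusted p = 0.708) in P1, 0.36 ± 0.091 (adjusted p = 0.00634) in P2 and 0.27 ± 0.086 (adjusted p = 0.0297) in P3. The P3 call was lost without P3 replicate 1 and with DESeq2. For hoxd3a, at 22.4 to 30.6 CPM, the log2 fold change was 0.13 ± 0.12 (adjusted p = 0.497) in P1, 0.44 ± 0.12 (adjusted p = 0.0108) in P2 and 0.18 ± 0.12 (adjusted p = 0.297) in P3. Without P2 replicate 1 the P2 call of hoxd3a was lost.

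Paralog group 4 marks the hindbrain to spinal cord transition. hoxd4a (ENSDARG00000059276, chr9:1939264-1941943) acts in the hindmost hindbrain. hoxd4a had 40.3, 39.3 and 37.6 CPM in the P1 libraries, 47.5 and 44.6 CPM in P2, 40.3, 39.6 and 40.4 CPM in P3 and 34.7 CPM in the control. Every exposed library lay above the control, with the P2 libraries highest. For hoxd4a the log2 fold change over the control was 0.17 ± 0.091 (adjusted p = 0.217) in P1, 0.41 ± 0.095 (adjusted p = 0.00368) in P2 and 0.21 ± 0.091 (adjusted p = 0.107) in P3. The hoxb4a transcript, a retinoic acid target, passed in P2 at 0.36 ± 0.12 (adjusted p = 0.026) and in P3 at 0.32 ± 0.11 (adjusted p = 0.0432), against 0.20 ± 0.11 (adjusted p = 0.252) in P1, where it missed the threshold. Its P2 call was lost without either P2 library, its P3 call without P3 replicate 2, and both with DESeq2. For hoxa4a the values were 0.25 ± 0.14 (adjusted p = 0.242) in P1, 0.32 ± 0.14 (adjusted p = 0.1) in P2 and 0.47 ± 0.14 (adjusted p = 0.0179) in P3, with only P3 past the threshold. For hoxc4a they were 0.31 ± 0.17 (adjusted p = 0.233), 0.13 ± 0.18 (adjusted p = 0.642) and 0.42 ± 0.17 (adjusted p = 0.0847) in P1, P2 and P3, and none passed.

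**Figure D2:**
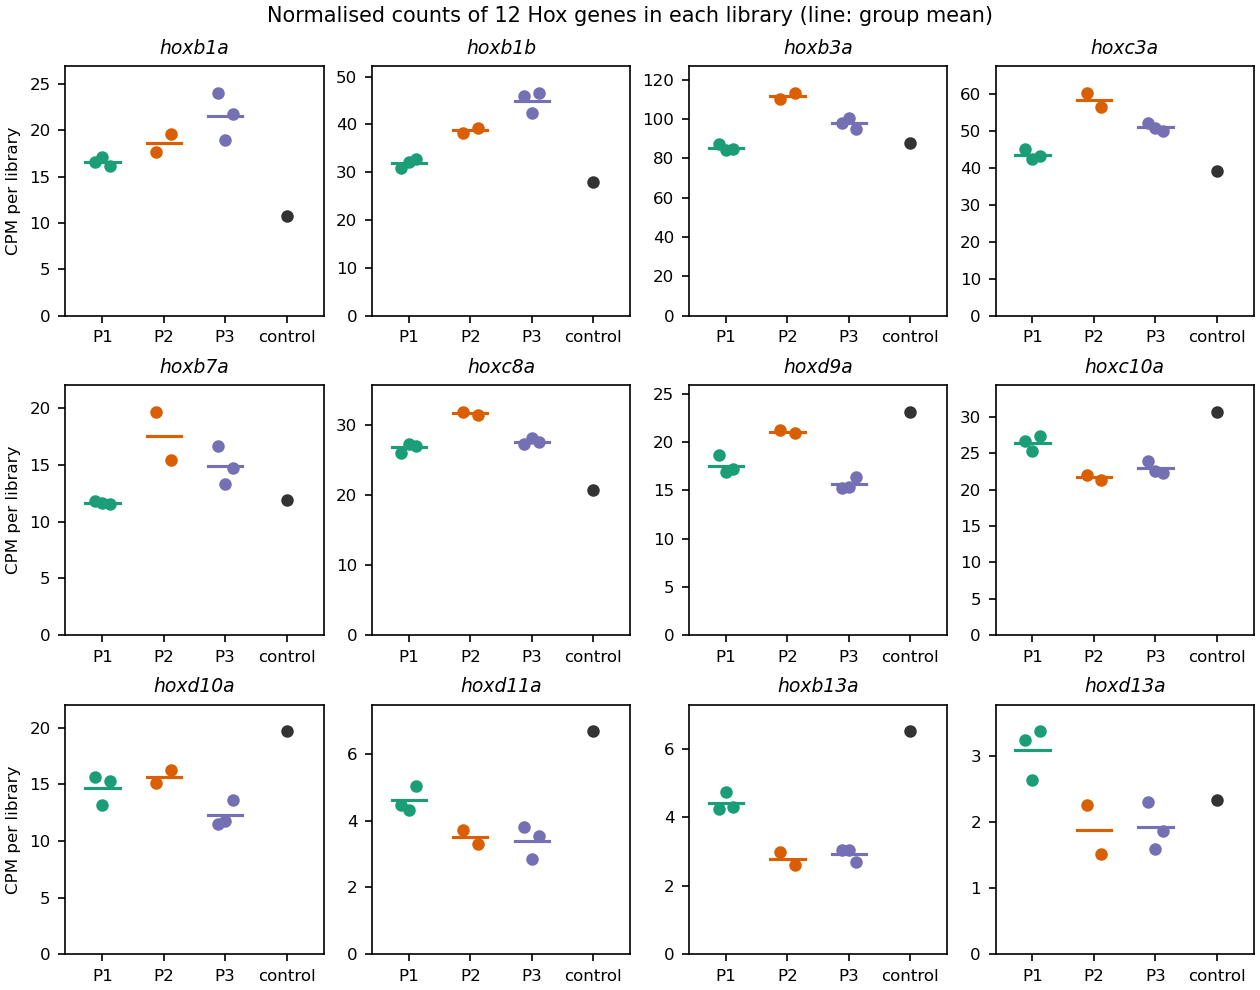
CPM of 12 Hox members in each library (points) by group, with the group mean as a line; each panel has its own linear axis from 0. In the hoxb1a panel the 8 exposed points lie between 16.2 and 24.0 CPM, above the control at 10.8 CPM, and in the hoxb13a panel they lie between 2.61 and 4.74 CPM, below the control at 6.51 CPM.

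Middle Hox genes pattern the trunk and the spinal cord at fin level. hoxc8a (ENSDARG00000070346, chr23:36152729-36155179), whose mouse counterpart specifies motor neurons of the forelimb-level spinal cord, was the 1 middle member to pass in all 3 phenotypes. hoxc8a had 26.0, 27.4 and 27.1 CPM in the P1 libraries, 31.9 and 31.5 CPM in P2, 27.3, 28.1 and 27.6 CPM in P3 and 20.7 CPM in the control. Every exposed library lay above the control and both P2 libraries above all others. For hoxc8a the log2 fold change over the control was 0.37 ± 0.10 (adjusted p = 0.0191) in P1, 0.61 ± 0.11 (adjusted p = 0.000311) in P2 and 0.42 ± 0.10 (adjusted p = 0.00674) in P3. The P1 call was lost with DESeq2. hoxb7a (ENSDARG00000056030, chr3:23983088-23987449) is the only group 7 member among the 49. hoxb7a had 11.8, 11.7 and 11.5 CPM in the P1 libraries, 19.7 and 15.5 CPM in P2, 16.7, 13.4 and 14.7 CPM in P3 and 11.9 CPM in the control. The P2 and P3 libraries lay above the control, with P2 replicate 0 the highest, while all 3 P1 libraries were slightly below it. For hoxb7a the log2 fold change over the control was -0.034 ± 0.17 (adjusted p = 0.92) in P1, 0.55 ± 0.17 (adjusted p = 0.0199) in P2 and 0.32 ± 0.16 (adjusted p = 0.177) in P3. The P2 call was lost without P2 replicate 0 and with DESeq2.

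The group 8 copies of the B clusters had log2 fold changes of opposite sign in P2 and P3. hoxb8a (ENSDARG00000056027, chr3:23979150-23981797) had the highest level per length among the middle members. hoxb8a had 44.2, 42.8 and 45.1 CPM in the P1 libraries, 40.6 and 38.1 CPM in P2, 46.2, 40.0 and 44.2 CPM in P3 and 47.8 CPM in the control. The control lay above all exposed libraries, and P2 held the lowest value. For hoxb8a the log2 fold change over the control was -0.12 ± 0.095 (adjusted p = 0.439) in P1, -0.28 ± 0.10 (adjusted p = 0.0429) in P2 and -0.14 ± 0.094 (adjusted p = 0.331) in P3. The P2 call was lost without either P2 library, with no filter on low counts and with DESeq2. hoxb8b (ENSDARG00000054025, chr12:28688847-28691064) is its duplicate. hoxb8b had 8.25, 8.54 and 9.34 CPM in the P1 libraries, 11.6 and 11.4 CPM in P2, 10.9, 7.88 and 10.4 CPM in P3 and 9.27 CPM in the control. Both P2 libraries lay above all P1 libraries and the control. For hoxb8b the log2 fold change over the control was -0.092 ± 0.18 (adjusted p = 0.787) in P1, 0.31 ± 0.19 (adjusted p = 0.229) in P2 and 0.075 ± 0.18 (adjusted p = 0.808) in P3, none past the threshold.

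None of the 8 members of groups 5 and 6 passed against the control. hoxb5a (ENSDARG00000013057, chr3:23998932-24001336) had a log2 fold change of -0.35 ± 0.14 (adjusted p = 0.114) in P1, -0.36 ± 0.15 (adjusted p = 0.0843) in P2 and -0.098 ± 0.14 (adjusted p = 0.668) in P3, with 11.4 to 16.0 CPM over the libraries. hoxb6a (ENSDARG00000010630, chr3:23994945-23996987) had -0.32 ± 0.15 (adjusted p = 0.154) in P1, -0.18 ± 0.15 (adjusted p = 0.399) in P2 and -0.26 ± 0.15 (adjusted p = 0.225) in P3, and all 8 exposed libraries lay below the control. hoxc6b (ENSDARG00000046045, chr11:2148535-2150246) had -0.33 ± 0.22 (adjusted p = 0.332) in P1, 0.070 ± 0.22 (adjusted p = 0.845) in P2 and -0.16 ± 0.21 (adjusted p = 0.639) in P3. The log2 fold changes of hoxa5a, hoxb5b, hoxc5a, hoxb6b and hoxc6a lay between -0.30 (hoxc6a in P1) and 0.19 (hoxa5a in P2).

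Posterior Hox genes act in the hind trunk and the tail, and they make up the latest part of the colinear sequence. Group 9 held 5 members, of which 2 passed against the control. hoxd9a (ENSDARG00000059274, chr9:1954804-1956526) is a posterior trunk and fin gene. hoxd9a had 18.7, 16.9 and 17.2 CPM in the P1 libraries, 21.3 and 21.0 CPM in P2, 15.3, 15.4 and 16.4 CPM in P3 and 23.1 CPM in the control. All 8 exposed libraries lay below the control, P3 lowest and P2 nearest to it, without overlap between phenotypes. For hoxd9a the log2 fold change over the control was -0.39 ± 0.11 (adjusted p = 0.0215) in P1, -0.13 ± 0.12 (adjusted p = 0.417) in P2 and -0.56 ± 0.11 (adjusted p = 0.00142) in P3. hoxa9a (ENSDARG00000009461, chr19:19213175-19217890) lies under the evx1 model. hoxa9a had 13.4, 14.8 and 12.3 CPM in the P1 libraries, 16.3 and 14.6 CPM in P2, 16.3, 14.4 and 13.5 CPM in P3 and 19.0 CPM in the control. The control lay above all 8 exposed libraries, whose phenotypes overlapped. For hoxa9a the log2 fold change over the control was -0.50 ± 0.14 (adjusted p = 0.0219) in P1, -0.30 ± 0.15 (adjusted p = 0.129) in P2 and -0.37 ± 0.14 (adjusted p = 0.0608) in P3. Without P1 replicate 2, and with DESeq2, the P1 calls of hoxa9a and hoxd9a were lost. Its ohnolog hoxa9b had log2 fold changes of -0.005, -0.016 and 0.051 in P1, P2 and P3. The posterior member with the highest level per length, hoxb9a, had 0.069, 0.16 and -0.027, and hoxc9a had -0.15, -0.18 and -0.21; none of these passed.

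Group 10 genes set lumbar identity in the mouse spine. hoxd10a (ENSDARG00000057859, chr9:1958506-1960870) lies next to hoxd9a in the hoxda cluster. hoxd10a had 15.7, 13.2 and 15.3 CPM in the P1 libraries, 15.2 and 16.2 CPM in P2, 11.5, 11.8 and 13.7 CPM in P3 and 19.7 CPM in the control. All exposed libraries lay below the control, and P3 held the lowest values but overlapped P1. For hoxd10a the log2 fold change over the control was -0.42 ± 0.14 (adjusted p = 0.0431) in P1, -0.33 ± 0.14 (adjusted p = 0.091) in P2 and -0.67 ± 0.14 (adjusted p = 0.00169) in P3. The P1 call was lost without P1 replicate 1 or replicate 2 and with DESeq2. hoxc10a (ENSDARG00000070348, chr23:36135161-36149312) has a model that reaches over hoxc9a. hoxc10a had 26.7, 25.3 and 27.4 CPM in the P1 libraries, 22.1 and 21.3 CPM in P2, 23.9, 22.6 and 22.3 CPM in P3 and 30.6 CPM in the control. All exposed libraries lay below the control, with P1 closest to it and above both P2 and P3. For hoxc10a the log2 fold change over the control was -0.21 ± 0.10 (adjusted p = 0.166) in P1, -0.50 ± 0.11 (adjusted p = 0.00188) in P2 and -0.42 ± 0.10 (adjusted p = 0.00565) in P3. Neither of the other group 10 members passed, at -0.36, -0.34 and -0.36 for hoxa10b and -0.20, 0.037 and -0.10 for hoxb10a in P1, P2 and P3.

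Group 11 genes act in the sacral region of the mouse. hoxd11a (ENSDARG00000059267, chr9:1966617-1968889) passed in P2 and P3. hoxd11a had 4.47, 4.34 and 5.03 CPM in the P1 libraries, 3.72 and 3.31 CPM in P2, 3.80, 2.86 and 3.54 CPM in P3 and 6.68 CPM in the control. The P1 libraries lay between the control, which was highest, and the other exposed libraries. For hoxd11a the log2 fold change over the control was -0.53 ± 0.21 (adjusted p = 0.0891) in P1, -0.93 ± 0.23 (adjusted p = 0.00487) in P2 and -0.97 ± 0.21 (adjusted p = 0.00312) in P3. hoxc11b (ENSDARG00000079406, chr11:2171560-2173211) lies in the small hoxcb cluster. hoxc11b had 2.79, 2.64 and 2.85 CPM in the P1 libraries, 3.17 and 3.31 CPM in P2, 3.31, 2.23 and 2.36 CPM in P3 and 4.26 CPM in the control. All 8 exposed libraries lay below the control. For hoxc11b the log2 fold change over the control was -0.62 ± 0.26 (adjusted p = 0.113) in P1, -0.39 ± 0.26 (adjusted p = 0.285) in P2 and -0.70 ± 0.26 (adjusted p = 0.0596) in P3, none past the threshold. hoxc11a (ENSDARG00000070351, chr23:36126342-36129676), its duplicate, lay above the control in all 8 exposed libraries. hoxc11a had 6.51, 6.44 and 6.49 CPM in the P1 libraries, 6.58 and 7.82 CPM in P2, 6.30, 6.80 and 6.98 CPM in P3 and 5.51 CPM in the control. Its log2 fold changes were 0.23 ± 0.19 (adjusted p = 0.446) in P1, 0.39 ± 0.20 (adjusted p = 0.146) in P2 and 0.28 ± 0.19 (adjusted p = 0.307) in P3, also below the threshold of the test. The hoxa11 copies were not called, and hoxa11a, the member with the lowest level per length, ran over 0.706 to 1.59 CPM. No member of group 12 passed: hoxc12a, hoxc12b and hoxd12a had log2 fold changes between -0.43 (hoxd12a in P2) and 0.23 (hoxc12b in P1).

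Group 13 genes end the sequence, at the tail tip and in the distal fins. hoxb13a (ENSDARG00000056015, chr3:23945474-23948441) belongs to the hoxba cluster, and its mouse counterpart limits growth of the tail. hoxb13a had 4.24, 4.74 and 4.31 CPM in the P1 libraries, 2.99 and 2.61 CPM in P2, 3.06, 3.05 and 2.70 CPM in P3 and 6.51 CPM in the control. All 8 exposed libraries lay below the control, with the P2 and P3 libraries below every P1 library. For hoxb13a the log2 fold change over the control was -0.56 ± 0.20 (adjusted p = 0.0654) in P1, -1.22 ± 0.22 (adjusted p = 0.000513) in P2 and -1.15 ± 0.21 (adjusted p = 0.000606) in P3. The P2 and P3 changes were the largest falls among the members in their comparisons, and they held under every setting run. hoxd13a (ENSDARG00000059256, chr9:1977615-1981122) acts in the distal fin buds. hoxd13a had 3.25, 2.64 and 3.38 CPM in the P1 libraries, 2.25 and 1.52 CPM in P2, 2.31, 1.59 and 1.87 CPM in P3 and 2.34 CPM in the control. The P1 libraries were the 3 highest and all lay above the control. For hoxd13a the log2 fold change over the control was 0.41 ± 0.32 (adjusted p = 0.419) in P1, -0.32 ± 0.35 (adjusted p = 0.534) in P2 and -0.28 ± 0.34 (adjusted p = 0.593) in P3, none past the threshold. The other group 13 members hoxa13a, hoxa13b, hoxc13a and hoxc13b had log2 fold changes between -0.46 (hoxa13b in P2) and 0.32 (hoxc13b in P1), and none passed.

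The log2 fold change over the control tended to be lower at higher paralog numbers in P2 and P3, but not steadily. By paralog group, the lowest median was that of group 11 (P2: -0.40, P3: -0.46). Beyond it the medians did not fall further: group 12 had higher ones (P2: -0.11, P3: -0.091), as did group 13 (P2: -0.12, P3: -0.16). For P1 the group 13 median was positive, at 0.24. Over the 49 genes, Spearman's rho between paralog number and log2 fold change over the control was -0.189 in P1, -0.555 in P2 and -0.571 in P3. These are descriptions across genes, which are not independent: they share libraries, and neighbours share overlapping models. By cluster, the hoxda members had medians of -0.27 in P1, -0.32 in P2 and -0.32 in P3, with 2, 1 and 3 lower calls. The hoxab members, 4 of 5 of them posterior, had medians of -0.014, -0.34 and -0.36 and no call. In P2 the hoxda cluster also held 2 higher calls, hoxd3a and hoxd4a at its anterior end. The hoxba cluster held 5 higher calls (hoxb1a, hoxb2a, hoxb3a, hoxb4a, hoxb7a) and 2 lower calls (hoxb8a, hoxb13a) in P2.

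**Figure D3:**
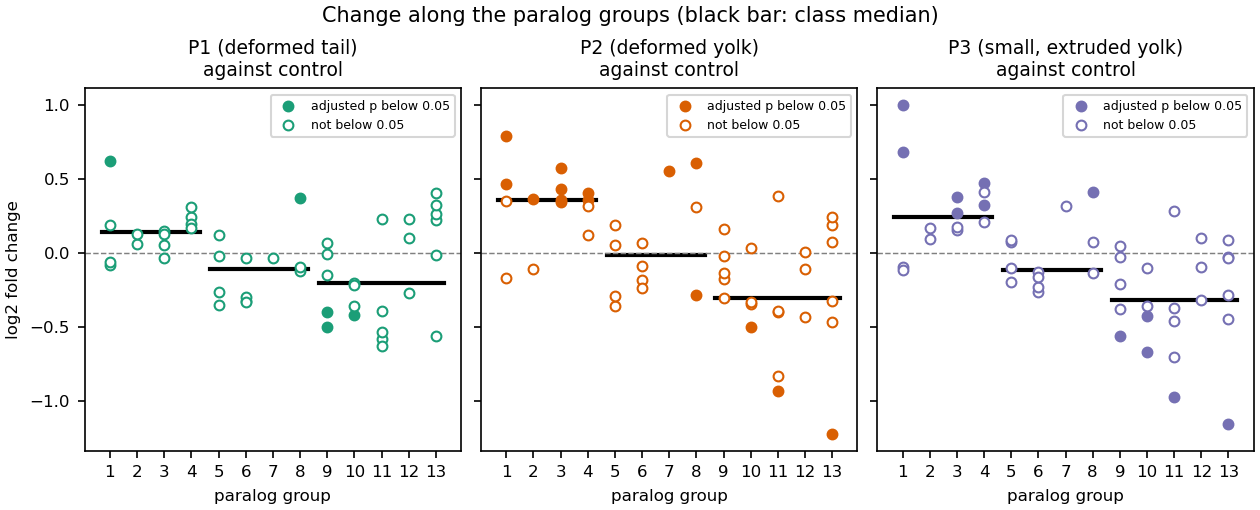
Log2 fold change over the control against paralog group for all 49 members, in 3 panels for P1, P2 and P3. Filled points passed edgeR's test, and black bars mark the medians of the anterior, middle and posterior class. In P2 and P3 the filled points are above 0 in groups 1 to 4 and below 0 in groups 9 to 13, with Spearman's rho of -0.555 and -0.571 over 49 genes, and -0.189 in P1.

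Summed over members, the same CPM values showed the same split by library, which is not a separate result. Reads in stretches shared by overlapping Hox models may enter a sum more than once. The 14 anterior members added up to 407, 389.6 and 409 CPM in P1, 484 and 486 CPM in P2, 467, 448 and 456 CPM in P3 and 371 CPM in the control. All exposed libraries lay above the control and the 3 phenotypes did not overlap. The 12 middle members added up to 184, 177 and 182 CPM in P1, 196 and 191 CPM in P2, 199.8, 181 and 189 CPM in P3 and 189.5 CPM in the control, which lay inside the exposed range. The 23 posterior members added up to 290.5, 288 and 291 CPM in P1, 294 and 286 CPM in P2, 286, 261 and 266 CPM in P3 and 319 CPM in the control, which lay above every exposed library. In RNA of whole embryos, fewer cells of a type and less RNA per cell cannot be told apart.

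**Figure D4:**
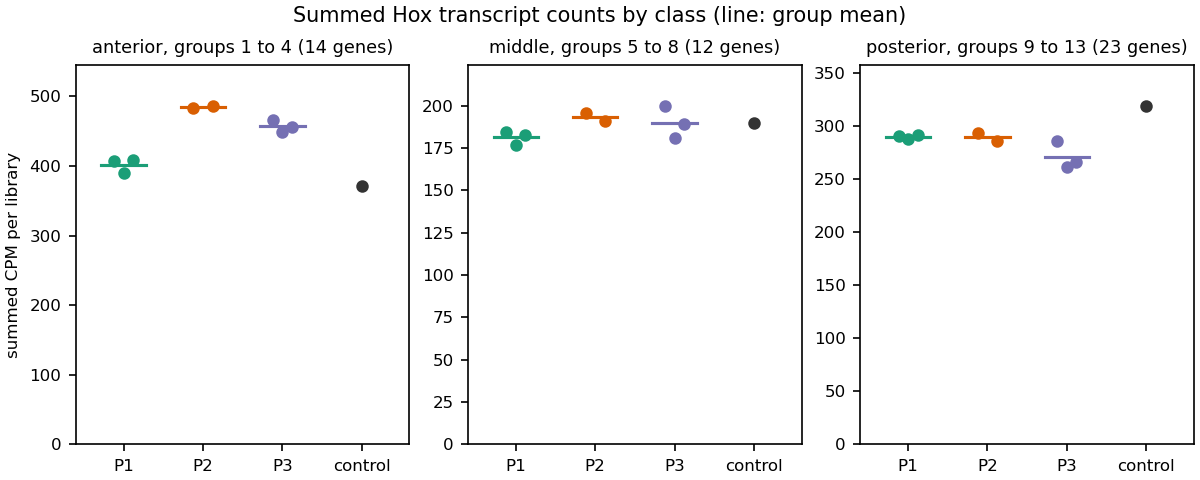
Summed CPM of the anterior (14), middle (12) and posterior (23) Hox members in each library (points) by group, with the group mean as a line and axes from 0. The anterior sum of the exposed libraries is 389.6 to 486 CPM, above the control at 371 CPM, and the posterior sum is 261 to 294 CPM, below the control at 319 CPM.

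The phenotypes were also compared with each other, which does not involve the single control library. In the joint test for any difference among P1, P2 and P3, 15 of 49 members passed, 8 anterior, 2 middle and 5 posterior, where 28.8% of all tested genes passed. The smallest adjusted p belonged to hoxb1b (6.72e-05), followed by hoxb3a (0.00029) and hoxc3a (0.000364). Without P2 replicate 0 the count was 9 and without P2 replicate 1 it was 8.

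P1 and P2 differed in 15 members, where 20.5% of all tested genes differed. Of these, 3 were higher in P1 and 12 lower (over all tested genes 10.6% were higher and 9.91% lower). Of the 14 anterior members, 7 were lower in P1 (hoxb1b, hoxc1a, hoxa3a, hoxb3a, hoxc3a, hoxd3a, hoxd4a) and none higher, with a class median of -0.23, where the median over all tested genes was 0.003. Positive values, short of the threshold, were those of hoxa1a at 0.084, hoxa2b at 0.17 and hoxc4a at 0.19. With either P2 library left out, 3 anterior members passed as lower. The largest anterior differences were in hoxc3a, at -0.42 ± 0.064 (adjusted p = 0.000179), in hoxc1a, at -0.41 ± 0.11 (adjusted p = 0.0102), and in hoxb3a, at -0.38 ± 0.057 (adjusted p = 0.00014). Middle genes lower in P1 were hoxb7a, at -0.59 ± 0.12 (adjusted p = 0.00157), hoxb8b, at -0.40 ± 0.13 (adjusted p = 0.0353), and hoxc8a, at -0.24 ± 0.071 (adjusted p = 0.0227). Of the 23 posterior members, 3 were higher in P1, hoxd13a at 0.73 ± 0.23 (adjusted p = 0.0351), hoxb13a at 0.66 ± 0.17 (adjusted p = 0.0109) and hoxc10a at 0.29 ± 0.078 (adjusted p = 0.0142), and 2 were lower, hoxd9a at -0.26 ± 0.084 (adjusted p = 0.0346) and hoxb10a at -0.24 ± 0.083 (adjusted p = 0.0491). Their share called higher, 13%, was near the 10.6% of all tested genes. With DESeq2, and without P2 replicate 1, no posterior member passed as higher. Without P2 replicate 0 the count was 5 members, without P2 replicate 1 it was 4, without P1 replicate 2 it was 9, and with DESeq2 it was 7.

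P3 and P1 differed in 8 members, where 10.4% of all tested genes differed (6.01% higher and 4.42% lower in P3). The 6 genes higher in P3 were hoxb1b, at 0.49 ± 0.063 (adjusted p = 5.59e-05), hoxb1a, at 0.38 ± 0.090 (adjusted p = 0.0103), hoxb7a, at 0.35 ± 0.11 (adjusted p = 0.0415), and the group 3 genes hoxc3a, hoxa3a and hoxb3a, at 0.23, 0.22 and 0.19. The 2 lower in P3 were both of group 13, hoxd13a at -0.69 ± 0.21 (adjusted p = 0.0401) and hoxb13a at -0.60 ± 0.15 (adjusted p = 0.0165). Across the 49 genes Spearman's rho with paralog number was -0.644 in this comparison, and 0.548 for P1 against P2. The count was 3 to 5 when any P1 library, P3 replicate 1 or P3 replicate 2 was left out (3 without P1 replicate 1), and hoxb1b passed in each of these. DESeq2 called 2 members.

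P3 and P2 differed in 8 members, where 21.5% of all tested genes differed (11% higher and 10.5% lower in P3). Only hoxb1b was higher in P3, at 0.22 ± 0.069 (adjusted p = 0.0333). Lower in P3 were hoxc1a at -0.46 ± 0.11 (adjusted p = 0.0044), hoxd9a at -0.43 ± 0.084 (adjusted p = 0.00151), hoxd10a at -0.34 ± 0.11 (adjusted p = 0.0261), and hoxd3a, hoxd4a, hoxb3a and hoxc3a at -0.26, -0.20, -0.19 and -0.19. Of these 8 members, 4 were of the hoxda cluster. Spearman's rho with paralog number was -0.038. Without P2 replicate 0 the count was 1, without P2 replicate 1 it was 2, without P3 replicate 2 it was 5, and with DESeq2 it was 3. A block on the replicate number gave 4.

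**Figure D5:**
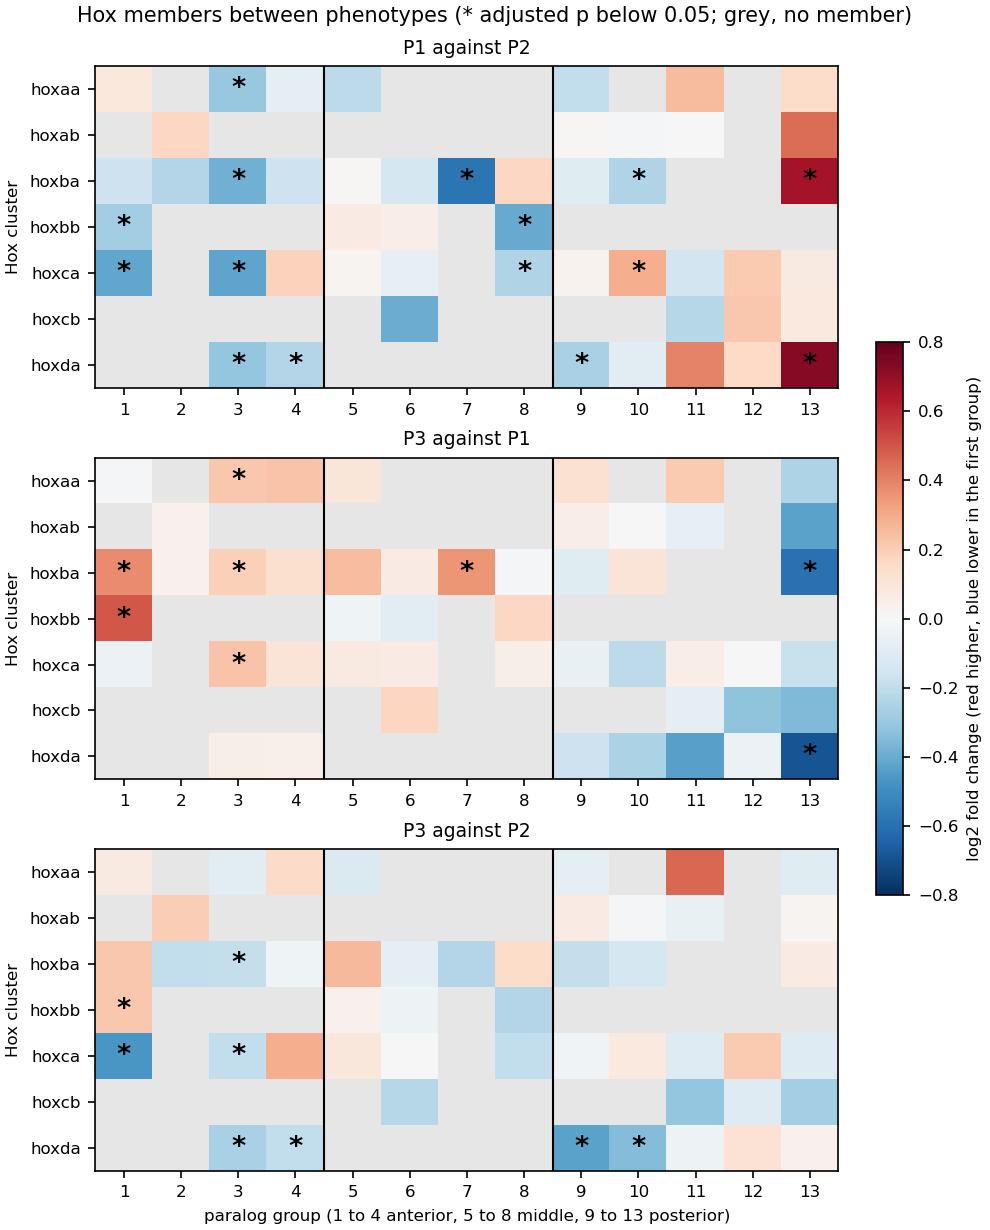
Log2 fold change of each Hox member between phenotypes, in 3 panels (P1 against P2, P3 against P1, P3 against P2) laid out by cluster and paralog group; red is higher in the first named group, stars mark members that passed edgeR's test and grey marks positions with no member. The stars number 15, 8 and 8, and the 2 darkest group 13 cells, hoxb13a and hoxd13a, are red for P1 against P2 and blue for P3 against P1.

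After the genome duplication at the base of the teleost fishes, zebrafish kept some Hox genes in both copies, and 11 such a and b pairs were among the members. Against the control an a copy passed in 3 pairs (hoxa9, hoxb1 and hoxb8) and a b copy in 1 (hoxb1). The hoxb1 copies were both higher, hoxb1a in all 3 phenotypes and hoxb1b in P2 and P3. The hoxb8 copies had fold changes of opposite sign in P2 and P3, at -0.28 and -0.14 for hoxb8a and 0.31 and 0.075 for hoxb8b. The difference between copies was not tested. The hoxc11 copies lay on opposite sides in all 3 phenotypes, at 0.23, 0.39 and 0.28 for hoxc11a in P1, P2 and P3 and at -0.62, -0.39 and -0.70 for hoxc11b, with none past the threshold. So did the hoxb5 copies, at -0.35, -0.36 and -0.098 for hoxb5a and 0.13, 0.059 and 0.093 for hoxb5b, also short of it. Some other pairs differed in sign in part of the phenotypes.

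Genes that work with or above Hox genes were read from lists, some of which share genes. Their counts against the control stand beside 7.08%, 14.2% and 10.4% higher and 9.19%, 15.6% and 12.2% lower over all tested genes in P1, P2 and P3. The TALE homeodomain cofactors of Hox proteins (Pbx, Meis and Pknox) had no call among 11 tested in P1, 1 higher and 3 lower in P2 (9.09% and 27.3%), and 1 higher and 2 lower in P3 (9.09% and 18.2%), on so few genes that 1 call moves a share by 9.09 percentage points. meis2b had 105, 99.7 and 100.2 CPM in the P1 libraries, 103 and 106 CPM in P2, 113, 108 and 109 CPM in P3 and 87.0 CPM in the control. The exposed libraries all lay above the control. Its log2 fold change was 0.22 ± 0.076 (adjusted p = 0.054) in P1, 0.27 ± 0.080 (adjusted p = 0.0191) in P2 and 0.34 ± 0.076 (adjusted p = 0.00376) in P3. The pbx3b transcript was lower in P2 at -0.71 ± 0.16 (adjusted p = 0.00245), pknox2 at -0.56 ± 0.15 (adjusted p = 0.0106) and meis3 at -0.28 ± 0.079 (adjusted p = 0.0133).

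Of 18 tested regulators that act upstream of Hox genes along the axis, 2 were higher and 1 lower in P1, 5 and 2 in P2, and 6 and 1 in P3. The list median was 0.13, 0.17 and 0.30 in P1, P2 and P3. The caudal gene cdx4 activates middle and posterior Hox genes in the tailbud. cdx4 had 14.6, 18.6 and 17.0 CPM in the P1 libraries, 20.7 and 20.3 CPM in P2, 30.5, 19.9 and 24.5 CPM in P3 and 8.35 CPM in the control. Every exposed library exceeded the control and P3 held the highest value. For cdx4 the log2 fold change over the control was 0.99 ± 0.23 (adjusted p = 0.00611) in P1, 1.30 ± 0.23 (adjusted p = 0.000411) in P2 and 1.58 ± 0.22 (adjusted p = 4.61e-05) in P3. The hindbrain factor egr2b, which acts in rhombomeres 3 and 5, was higher in all 3 phenotypes. For egr2b the log2 fold change over the control was 0.88 ± 0.25 (adjusted p = 0.0237) in P1, 1.59 ± 0.25 (adjusted p = 0.000114) in P2 and 1.24 ± 0.24 (adjusted p = 0.00137) in P3. The pronephros and hindbrain factor hnf1ba was at 0.24 ± 0.12 (adjusted p = 0.206), 0.23 ± 0.13 (adjusted p = 0.189) and 0.81 ± 0.12 (adjusted p = 9.2e-05) in P1, P2 and P3, with P3 past the threshold. A gene singled out after its values were seen, evx2, which neighbours the hoxd13a end of the hoxda cluster, was lower in each phenotype, at -0.96 ± 0.24 (adjusted p = 0.0111), -1.60 ± 0.27 (adjusted p = 0.000262) and -0.91 ± 0.24 (adjusted p = 0.0102).

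The retinoic acid genes, 25 tested, had 4 higher and 4 lower calls in P1, 10 and 5 in P2, and 5 and 6 in P3. The largest rise was in cyp26a1, which encodes the enzyme that clears retinoic acid and is itself induced by it. cyp26a1 had 75.9, 73.6 and 76.2 CPM in the P1 libraries, 116 and 113 CPM in P2, 76.8, 77.1 and 83.6 CPM in P3 and 35.8 CPM in the control. Every exposed library lay above the control, and both P2 libraries were the highest. For cyp26a1 the log2 fold change over the control was 1.07 ± 0.090 (adjusted p = 3.96e-07) in P1, 1.68 ± 0.094 (adjusted p = 7.81e-10) in P2 and 1.15 ± 0.090 (adjusted p = 7.68e-08) in P3. The retinaldehyde reductase genes dhrs3a and dhrs3b were higher in all 3 phenotypes, from 0.49 ± 0.093 (adjusted p = 0.00162) (dhrs3b in P1) to 1.38 ± 0.20 (adjusted p = 6.95e-05) (dhrs3a in P2). The retinoic acid binding protein gene crabp1b was lower, at -0.60 ± 0.13 (adjusted p = 0.00431), -1.33 ± 0.14 (adjusted p = 2.18e-06) and -1.04 ± 0.13 (adjusted p = 1.79e-05) in P1, P2 and P3.

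Polycomb, Trithorax and cohesin genes, which hold Hox clusters silent or active, had calls in both directions among 31 tested: 2 higher and 3 lower in P1, 5 and 4 in P2, and 2 and 2 in P3. These shares, 6.45% to 16.1% higher and 6.45% to 12.9% lower, were near or below those of all tested genes. The H3K27 demethylase gene kdm6bb was lower in all 3, at -0.80 ± 0.086 (adjusted p = 6.9e-06), -1.03 ± 0.092 (adjusted p = 2.97e-07) and -0.92 ± 0.086 (adjusted p = 5.55e-07). The cohesin subunit gene rad21a was at -0.039 ± 0.12 (adjusted p = 0.867) in P1, -1.08 ± 0.13 (adjusted p = 7.26e-06) in P2 and -0.59 ± 0.12 (adjusted p = 0.00172) in P3. For wdr5, of the H3K4 methyltransferase complexes, the values were 0.31 ± 0.072 (adjusted p = 0.00779), 0.38 ± 0.076 (adjusted p = 0.00121) and 0.15 ± 0.072 (adjusted p = 0.142), and for bmi1a, of Polycomb complex 1, they were 0.15 ± 0.099 (adjusted p = 0.336), 0.009 ± 0.10 (adjusted p = 0.962) and 0.47 ± 0.099 (adjusted p = 0.00225).

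Markers of the tissues that transcribe Hox genes were read in the same way, and their part in the Hox changes was not tested. Of 13 tested hindbrain markers, 1 was higher in P1, 4 in P2 and 3 in P3 (7.69%, 30.8% and 23.1%), with none lower. Their list medians were only 0.091, 0.12 and 0.16 in P1, P2 and P3. Their summed level was 331 to 354 CPM in P1, 368 to 369 CPM in P2, 350.2 to 357 CPM in P3 and 334 CPM in the control. The calls of egr2b and mafba are counted here and among the upstream regulators. The hindbrain gene irx7 was at 0.32 ± 0.16 (adjusted p = 0.184), 0.93 ± 0.16 (adjusted p = 0.000241) and 0.66 ± 0.15 (adjusted p = 0.0045) in P1, P2 and P3, and wnt1 at 0.087 ± 0.15 (adjusted p = 0.746), 0.45 ± 0.15 (adjusted p = 0.0337) and 0.19 ± 0.15 (adjusted p = 0.398). Of 13 tested spinal cord markers, none was called in P1, 4 were lower in P2 and 2 in P3 (30.8% and 15.4%, where 15.6% and 12.2% of all tested genes were lower). Their summed level was 211 to 233 CPM in P1, 206 to 211 CPM in P2, 209 to 218 CPM in P3 and 252 CPM in the control. The interneuron marker lhx1a was at -0.54 ± 0.20 (adjusted p = 0.0732), -0.94 ± 0.21 (adjusted p = 0.00314) and -0.75 ± 0.20 (adjusted p = 0.0116) in P1, P2 and P3, pax2a in P2 at -0.47 ± 0.11 (adjusted p = 0.00396) and the motor neuron marker isl1 in P2 at -0.37 ± 0.13 (adjusted p = 0.0434).

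Paraxial mesoderm and tailbud markers had the highest list medians. Of 21 tested, 3 were higher in P1, 9 in P2 and 11 in P3, and none was lower, with list medians of 0.50, 0.75 and 0.84. Their summed level was 317 to 334 CPM in P1, 366 to 372 CPM in P2, 345.5 to 379.9 CPM in P3 and 255 CPM in the control. The presomitic mesoderm factor tbx6 stood out. tbx6 had 12.8, 14.2 and 11.7 CPM in the P1 libraries, 25.2 and 25.3 CPM in P2, 27.0, 21.4 and 21.9 CPM in P3 and 5.34 CPM in the control. All exposed libraries were above the control, P2 and P3 above P1. For tbx6 the log2 fold change over the control was 1.27 ± 0.20 (adjusted p = 0.000359) in P1, 2.24 ± 0.19 (adjusted p = 1.7e-07) in P2 and 2.13 ± 0.19 (adjusted p = 2.74e-07) in P3. For the somite gene meox1 the values were 0.68 ± 0.11 (adjusted p = 0.000472), 0.87 ± 0.12 (adjusted p = 2.14e-05) and 0.95 ± 0.11 (adjusted p = 6.98e-06), for bambia 0.55 ± 0.10 (adjusted p = 0.00118), 0.50 ± 0.11 (adjusted p = 0.00153) and 0.32 ± 0.10 (adjusted p = 0.0265), and for the trunk mesoderm factor tbx16 0.50 ± 0.25 (adjusted p = 0.186), 1.28 ± 0.24 (adjusted p = 0.000584) and 0.84 ± 0.24 (adjusted p = 0.0161).

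Fin bud and lateral plate markers summed to 461 to 467 CPM in P1, 474 to 475 CPM in P2, 453 to 464 CPM in P3 and 419 CPM in the control. Their list medians were only 0.13, 0.046 and 0.022 in P1, P2 and P3. Of 15 tested, 3 were higher in P1, 5 in P2 and 3 in P3 (20%, 33.3% and 20%), with none lower. Examples are prdm1a at 0.40 ± 0.085 (adjusted p = 0.00408), 0.60 ± 0.089 (adjusted p = 7.34e-05) and 0.63 ± 0.085 (adjusted p = 3.68e-05), sp9 at 0.70 ± 0.13 (adjusted p = 0.00143), 0.68 ± 0.14 (adjusted p = 0.00107) and 0.38 ± 0.13 (adjusted p = 0.0448) and msx1b at 0.32 ± 0.092 (adjusted p = 0.0256), 0.38 ± 0.096 (adjusted p = 0.00704) and 0.42 ± 0.092 (adjusted p = 0.00291), while sp8a passed in P2 alone, at 0.30 ± 0.095 (adjusted p = 0.0221). Of 15 pronephros and gut markers, 1 was higher and 1 lower in P1, 1 and 5 in P2, and 4 and 2 in P3. Their share was near that of all tested genes in P1, above it for lower calls in P2 (33.3%) and above it for higher calls in P3 (26.7%). Of these markers, 4 are also in other lists. Among them are lhx1a and pax2a, whose lower calls in P2 are counted with the spinal cord markers too. The pronephros and gut markers summed to 307 to 324 CPM in P1, 305 to 310.0 CPM in P2, 363 to 373 CPM in P3 and 311 CPM in the control. The endoderm and heart factor gata6 was at 0.37 ± 0.096 (adjusted p = 0.0129), 0.12 ± 0.10 (adjusted p = 0.382) and 0.73 ± 0.095 (adjusted p = 2.48e-05) and the pronephric duct cadherin cdh17 at 0.11 ± 0.079 (adjusted p = 0.367), 0.27 ± 0.083 (adjusted p = 0.0192) and 0.40 ± 0.079 (adjusted p = 0.00135). No matched marker of any list was at 0 in all 9 libraries.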

How the data were processed

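Poly(A) RNA of whole embryos was sequenced from TruSeq RNA v2 libraries, as the labels' protocols state. The submitters' processing notes name the Zv9 build and the aligner Novoalign, with no version. No source used here names the counter, the annotation release or a strand setting. The authors deposited raw counts per gene and library and FPKM values, per the file headers. Their tables also hold a score made from the log10 of their adjusted p and a log2 ratio of phenotype over control, per the file headers and values, used in the closing part alone. Before deposit the authors corrected these log2 ratios for variance, per the column names in the file headers, by a method not given. The sign of the ratio gave the direction of the authors' calls. Other deposited variance-corrected values were not used.

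The control counts are the same in the 3 tables, which were joined to 9 libraries. edgeR 4.0.16 was used with its filterByExpr filter (at least 10 counts, total of at least 15), which kept 19835 genes. TMM factors and 1 quasi-likelihood model of all 9 libraries with a group term were used (R 4.3.3, limma 3.58.1; 5 residual and a median of 12.4 prior degrees of freedom, common biological coefficient of variation 0.0565). Tests were two-sided F tests. The standard error after ± is the size of the log2 fold change divided by the square root of F. The procedure was tested on simulated data with planted changes larger than most Hox changes called here. Recovery of changes as small as those was not tested. Alternatives were RLE factors, library totals alone, DESeq2 1.42.0, other filters, a fit of the compared groups alone, a replicate block, and each exposed library left out.

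Members given in full were, per class, the 6 with the smallest adjusted p in a control comparison or the joint test, and those with the largest rise or fall, at 1 CPM or more on average. From each list up to 4 genes with the smallest adjusted p are named, and some genes that this rule covers are not reported here. The members and gene lists were chosen with earlier results of these data known. List members were matched to the tables by symbol or older symbol. A count of 3, taken as the floor of detection, corresponded to 0.144 to 0.250 CPM and covers counting error only.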

Additional observations from a re-analysis of the deposited data

Results flagged for a closer look

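In 6 members, the fitted log2 fold changes over the 1 control library had opposite signs in a pair of phenotypes, and the test of the difference between these phenotypes passed in edgeR. How many of all tested genes meet this rule was not counted, so the 6 have no background beside them. Single libraries of a phenotype lay on both sides of the control in some of these members. Some signs rest on changes near 0 and smaller than their SE, such as those of hoxb3a and hoxb7a in P1. Differences are on the log2 scale, the first named group over the second. For hoxc1a the difference was -0.41 between P1 and P2 (log2 fold change over the control -0.061 in P1 and 0.35 in P2) and -0.46 between P3 and P2 (-0.11 in P3 and 0.35 in P2). For hoxb3a it was -0.38 between P1 and P2 (-0.034 in P1 and 0.35 in P2) and 0.19 between P3 and P1 (0.16 in P3 and -0.034 in P1). For hoxb7a it was -0.59 between P1 and P2 (-0.034 in P1 and 0.55 in P2) and 0.35 between P3 and P1 (0.32 in P3 and -0.034 in P1). Between P1 and P2 it was -0.40 for hoxb8b (-0.092 in P1 and 0.31 in P2), and -0.24 for hoxb10a (-0.20 in P1 and 0.037 in P2). For hoxd13a it was 0.73 between P1 and P2 (0.41 in P1 and -0.32 in P2) and -0.69 between P3 and P1 (-0.28 in P3 and 0.41 in P1). Of the single changes over the control behind these differences, those of hoxb3a and hoxb7a in P2 passed the test and the others did not. The difference of hoxb3a between P1 and P2 passed under every setting run, and each of the others was lost under at least 1. That of hoxb10a was lost with DESeq2, with no filter on low counts, with the replicate block and without any 1 of the P1 or P2 libraries. For hoxd13a the P1 to P2 difference was lost with DESeq2, with the block, and without P1 replicate 0, P1 replicate 2 or P2 replicate 1, and the P3 to P1 difference with DESeq2 and without P1 replicate 0, P1 replicate 2, P3 replicate 1 or P3 replicate 2. The hoxb8b difference was lost with DESeq2 and without P1 replicate 0, P1 replicate 1 or either P2 library. For hoxb7a the P1 to P2 difference was lost without P2 replicate 0, and the P3 to P1 difference with DESeq2 and without any P1 library, P3 replicate 0 or P3 replicate 2. For hoxc1a the P1 to P2 difference was lost without either P2 library and the P3 to P2 difference without P2 replicate 0. The P3 to P1 difference of hoxb3a was lost with DESeq2 and without P1 replicate 1, P1 replicate 2 or P3 replicate 1.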

How the results depend on the processing

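Of 3087 comparisons of a single Hox member's fold change under an alternative with its reported one, 2923 kept their side of the threshold, 137 lost the call and 27 gained it. A call can be lost only where the reported fit made one, which was so in a minority of the 3087. The share of calls lost was therefore larger than 137 of 3087. The sign changed in 86, all of them past the threshold in neither fit. RLE factors and library totals alone moved the median of all genes by less than 0.1. With DESeq2 the calls over all genes were 1917 for P1, 3820 for P2 and 2717 for P3 against the control (3227, 5916 and 4482 in edgeR), 2463 for P1 against P2, 1263 for P3 against P1 and 2671 for P3 against P2 (4072, 2069 and 4270 in edgeR). For Hox members DESeq2 gave 1 for P1 against the control, 7 for P1 against P2, 2 for P3 against P1 and 3 for P3 against P2. A fit of P2 and the control alone called 23 members, where the fit of all libraries called 15. Over all genes that fit called 7966 of 19361, where the fit of all libraries called 5916 of 19835. The cause of these differences was not tested.

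With 1 exposed library left out at a time, so with fewer samples, Hox calls were 2 to 6 for P1, 11 to 12 for P2 and 11 to 16 for P3 against the control, 4 to 11 for P1 against P2, 3 to 8 for P3 against P1, 1 to 10 for P3 against P2 and 8 to 17 in the joint test. Over all genes they were 1725 to 3260 for P1 against P2, 1301 to 2156 for P3 against P1, 1885 to 4654 for P3 against P2 and 3083 to 6536 in the joint test, where 5708 passed with all libraries. Against the control, calls over all genes were 2369 to 2994 for P1 and 4006 to 4673 for P3, where 3227 and 4482 passed with all libraries. Where P2 kept 1 library, its spread was taken from the other groups. Over all settings the higher anterior members numbered 1 in P1, 6 to 11 in P2 and 3 to 6 in P3, and the lower posterior members 0 to 3, 3 to 8 and 5 to 9. Anterior medians against the control stayed positive and posterior medians negative under all settings run, each with the same control library. The posterior median of P3 against P2 changed sign, to 0.007 and 0.014, without P2 replicate 0 and without P3 replicate 1.

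The replicate numbers are shared between phenotypes, and the labels do not say what they stand for. Deviations of same-numbered libraries from their group means correlated at -0.107 to 0.018, so the numbers were not taken to pair libraries. With the replicate block on the exposed libraries, 10 members passed for P1 against P2, 8 for P3 against P1, 4 for P3 against P2 and 13 in the joint test. No block could be fitted against the control. The lowest count, 13 in 1 library, was that of hoxa11a, whose SE against the control was 0.37 to 0.41. Its log2 fold changes of -0.575 in P1, -0.826 in P2 and -0.367 in P3 did not pass edgeR's test (adjusted p = 0.336, 0.141 and 0.524). Changes of this size in hoxa11a were thus not called at this depth.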

Other observations

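The authors' deposited table of each phenotype against the control also covers the 49 members, by a test whose name no source used here gives. At an adjusted p below 0.05 the authors' deposited table for P1 holds 1 higher and 1 lower member, and 2 of the 5 edgeR calls are among them; hoxc8a, hoxd9a and hoxd10a were called by edgeR alone. For P2 the authors' deposited table holds 9 higher and 4 lower members, 13 of the 15 edgeR calls, without hoxb2a and hoxb4a. For P3 the authors' deposited table holds 2 higher and 4 lower members, 6 of the 12 edgeR calls, without hoxa3a, hoxc3a, hoxa4a, hoxb4a, hoxc8a and hoxc10a. No member was called in the authors' deposited tables alone. The share of all genes that the authors' test called was not computed, so these Hox counts have no background beside them. Both tests read the same libraries, so shared calls are not an independent check.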
